A study of Homo sapiens with 9 samples.

Results

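The potassium channel genes analysed here were the gene symbols that start with KCN, 96 of the 23619 symbols in the expression tables, after 8 antisense, intronic or overlapping-transcript symbols had been left out. They were measured by RNA sequencing in RKO, a human colorectal cancer cell line, in which exon 9 of DIP2C, a gene mutated in breast and lung cancer, had been targeted by recombinant adeno-associated virus. The groups were parental RKO (2 samples), DIP2C-/- cells (clones E3 and C10) and DIP2C+/- cells (clones A6-C9, G1-A5, A9-A12, H9-A4 and F6-A7), all grown for 48 h before RNA isolation. Each clone grew out of a single cell and was sequenced as 1 library, and the homozygous clones were made by targeting a heterozygous clone again, so the clones were not independent of one another. No clone had gone through targeting with DIP2C intact, so clonal outgrowth and loss of DIP2C cannot be told apart.

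Potassium channels let potassium ions leave or enter the cell along their gradient, and so set the resting membrane potential, end action potentials, and drive transport, volume control and division in cells that are not excitable. Pore-forming subunits assemble into channels that open with voltage (KCNA to KCND, KCNQ and KCNH) or with calcium or sodium (KCNMA, KCNN and KCNT). Other channels pass current preferentially inward (KCNJ) or leak at rest (KCNK). KCNU1 was grouped with the calcium- or sodium-activated genes by symbol only. Accessory subunits such as those of the KCNAB, KCNE, KCNIP and KCNMB genes bind the pore and change its gating or its traffic to the membrane. In the colon, KCNQ1 and KCNN4 channels supply the driving force for chloride secretion.

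Levels are given as CPM, the deposited estimated counts scaled to a common library total after TMM normalisation. The deposited counts had totals of 14772593 to 21486483 per sample. At this depth 3 counts, taken as the smallest detectable amount, equal 0.14 to 0.203 CPM by library size, and such floors cover counting error only. DIP2C itself was at 60.9 and 70.8 CPM in the parental samples, at 17.4 and 22.8 CPM in clones E3 and C10, and at 33.6 to 56.2 CPM in the heterozygous clones, so all 7 clones lay below both parental samples. The value nearest to the parental ones was that of clone H9-A4. Clone H9-A4 also stood apart across all genes: the chi-square per degree of freedom between it and the other heterozygous clones was 80.9 to 95.2, against 16.4 to 47.4 for the other pairs of 1 group. Results are therefore given with and without this clone. Of 8 epithelial and colon markers 6 were detected, led by KRT18 at 121 to 293 CPM, while KRT19 and LGALS4 counted as off, so of the colon markers mainly keratins and CDX2 were present. Summed markers of neurons, leukocytes and fibroblasts were at 1.21 to 2.87, 0.724 to 1.64 and 1.01 to 5.79 CPM over all 9 samples. In such bulk RNA, fewer cells with a transcript and less transcript per cell cannot be told apart.

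The 2 members called in any comparison with parental cells, with or without clone H9-A4, were KCNQ5, which was lower in the clones, and KCNAB2, which was higher. KCNQ5 encodes a pore subunit of the Kv7 channels that carry the M-current, a slow potassium current that restrains firing in neurons and sets tone in smooth muscle. KCNAB2 encodes a beta subunit that docks onto the inner face of Kv1 channels and has the fold of an aldo-keto reductase. KCNQ5 lies on chr6:73331520-73908576, plus strand, and KCNAB2 on chr1:6050987-6161253, plus strand, in GRCh37 with the GENCODE 44 annotation. The 300 bases around a start site of each, 250 before and 50 after it, are shown because DIP2C has a predicted binding domain for DMAP1, a partner of a DNA methyltransferase, and CG pairs are where DNA is methylated. They are RefSeq entries, each found once in GRCh37, at chr6:73331542-73331841 for KCNQ5 and chr1:6052486-6052785 for KCNAB2, both on the plus strand, with every CG pair in capitals.
KCNQ5: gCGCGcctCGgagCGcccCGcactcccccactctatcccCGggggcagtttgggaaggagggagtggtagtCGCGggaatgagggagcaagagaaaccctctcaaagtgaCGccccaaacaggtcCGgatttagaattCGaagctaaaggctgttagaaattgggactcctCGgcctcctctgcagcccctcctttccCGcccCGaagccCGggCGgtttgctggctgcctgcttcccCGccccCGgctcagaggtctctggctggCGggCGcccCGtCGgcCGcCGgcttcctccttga
KCNAB2: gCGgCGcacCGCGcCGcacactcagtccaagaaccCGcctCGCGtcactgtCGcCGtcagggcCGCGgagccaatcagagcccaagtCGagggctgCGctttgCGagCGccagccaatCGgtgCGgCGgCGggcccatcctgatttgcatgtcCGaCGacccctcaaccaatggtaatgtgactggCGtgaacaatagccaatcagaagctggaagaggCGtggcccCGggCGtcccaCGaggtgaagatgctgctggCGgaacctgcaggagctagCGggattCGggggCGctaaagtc
The KCNQ5 window holds 24 CG pairs and the KCNAB2 window 31. Of the 35116 promoters of the table, 33.9% hold at least 24 and 20.7% at least 31, and the median is 14. Over the 43 detected members with an entry the median was 25, and over the 28 members that counted as off it was 8.5. No methylation was measured in the files analysed here, and these counts describe the reference sequence only. In GENCODE 44 both windows begin after the start of their gene, and all 300 bases of each are exonic in that gene. They are therefore not purely upstream sequence. The KCNQ5 window also overlaps the antisense RNA KCNQ5-DT, and the KCNAB2 window overlaps 48 exonic bases at the 5′ end of the antisense gene NPHP4.

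A member counted as off when it had fewer than 10 counts in every sample. By this rule 59 members (61.5%) were on and 37 were off, where 68.9% of all 23619 symbols were on. The members just below the limit were KCNN2 and KCNJ16 (at most 9.01 counts each) and KCNMB2 (9.76), and those just above it were KCNJ12 (10.03), KCND3 (10.1) and KCNH4 (10.5). The order at this limit depended on the scale of the deposited counts. Divided by each sample's step, KCNN2 and KCNJ16 reached 12 reads, KCNMB2 13 and KCNJ12 10, and 27 members instead of 37 stayed under 10. The EAG, ERG and ELK channels (7 of 8 on), the calcium- or sodium-activated channels (7 of 8) and the Kv7 channels (4 of 5) had the highest shares of members on. The inward rectifiers had 9 of 16 on, the Kv1 to Kv4 pore subunits 9 of 17, the 2-pore-domain channels 7 of 15 and the modifying voltage-gated subunits 4 of 10. Of the accessory subunits, 12 of 17 were on.

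Few of the detected members were present throughout. There were 16 members with at least 10 counts in all 9 samples, 20 in 4 to 8 samples and 23 in 1 to 3 samples. The 16 included KCNAB1, KCNAB2, KCNAB3, KCNC4, KCNH2, KCNJ11, KCNJ14, KCNK1, KCNK5, KCNK6, KCNK7, KCNMA1, KCNMB4, KCNQ1 and KCNQ3, and together they made up 86% and 88.1% of the members' summed CPM in the parental samples and 85.4% to 93.5% in the clones. The number of members on in a single sample was 36 in each parental sample, 41 in E3, 33 in C10 and 26 to 40 in the heterozygous clones, so the clones lay on both sides of the parental samples.

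Per kb of the canonical transcript, the scale on which genes can be compared, KCNAB2 and KCNH2, the pore of the cardiac hERG channel, were the most abundant members in parental cells. Their parental levels were 13.7 and 13.9 CPM per kb for KCNAB2 and 13.5 and 13.8 CPM per kb for KCNH2, so they did not differ beyond their spread. The 2-pore-domain channels KCNK5 (mean 7.86 CPM per kb) and KCNK1 (6.89) followed, with ranges that overlapped at 7.61 to 8.12 and 6.12 to 7.65. KCNC4, KCNJ11, KCNQ1 and KCNK6 came further down, with parental means of 3.24 to 4.05 CPM per kb and ranges that overlapped between neighbours in this order. KCNQ5 was at 0.649 and 1.14 CPM per kb in the parental samples and at 0.0228 to 0.0988 CPM per kb in the clones. It thus belonged to the moderately expressed members of parental cells and to the barely detected ones of the clones.

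Each comparison with parental RKO asked which genes differed between parental cells and clones with 1 or both DIP2C alleles targeted. After the filter on low counts 56 members were among the 15532 genes tested by edgeR's quasi-likelihood test, with the p-values adjusted over all of these genes by the Benjamini-Hochberg method. In the average of the 7 clones 1 member was called at an adjusted p under 0.05, KCNQ5, which was lower, against 0.18% of all genes called. In the DIP2C+/- clones the same 1 member was called, against 0.0966% of all genes. In the DIP2C-/- clones 0 members were called by edgeR, against 0.00644% of all genes, with 3 members at an unadjusted p under 0.05 (12.7% of all genes) and 1 member, KCNQ5, called by DESeq2 (1.9% of all genes). Without clone H9-A4, 55 members were tested, and in each of these 3 contrasts KCNQ5 was called lower and KCNAB2 higher, against 8.95% of all genes in the average of the clones, 7.95% in DIP2C+/- and 4.76% in DIP2C-/-. With all 9 samples, the share of members called was thus above that of all genes in the average of the clones and in DIP2C+/-. There it rested on KCNQ5 alone. It was below that of all genes in DIP2C-/- with all 9 samples, and in each of the 3 contrasts without H9-A4. None of these differences was tested. The median log2 difference of the 56 members in the average of the clones was 0.17, where that of all genes tested was 0.0177, with 37 members higher and 19 lower by any amount. The gap between these medians was not tested. Members such as KCNC1, KCNG2, KCNH1 and KCNK15 had fewer than 10 counts in both parental samples. These passed the filter through clones where they were high, which can raise the median, the number higher and the family medians below.

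**Figure D1:**
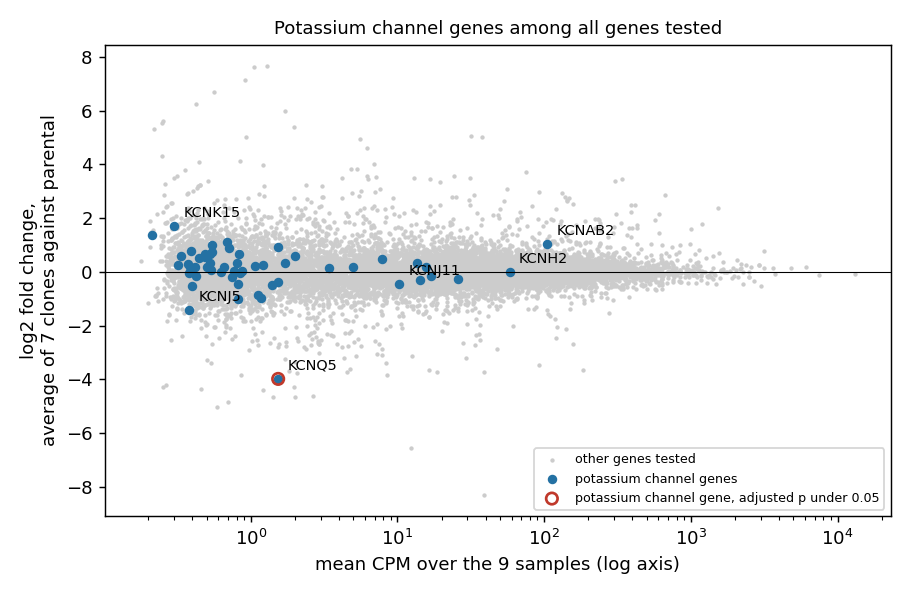
Log2 difference of the average of the 7 clones from parental RKO against mean CPM (log axis) for all 15532 genes tested, with 55 of the 56 potassium channel genes marked. KCNQ5 lies at -3.99 and KCNAB2 at 1.04, and most other members lie near 0 at low CPM.

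KCNQ5 was lower in every clone than in either parental sample. Its level was 7.24 and 4.13 CPM in the parental samples, 0.629 CPM in E3 and 0.16 CPM in C10. In the heterozygous clones it was 0.145 CPM in A6-C9, 0.255 in G1-A5, 0.464 in A9-A12, 0.402 in H9-A4 and 0.41 in F6-A7. No clone came near the lower parental sample, and every clone had fewer than 10 deposited counts, so that KCNQ5 would have counted as off by that rule without the parental samples. Deposited counts are not reads: divided by the constant step between the values of each sample, they gave 13 reads in E3, 11 in A9-A12, 10 in H9-A4 and 3 to 8 in the other clones. The 2 parental samples held 170 and 71 reads of the gene, together 241 (95% exact Poisson interval 212 to 273). The 7 clones together held 54 reads (40.6 to 70.5). These intervals cover counting error only and not the spread between libraries, and the totals come from unlike numbers of libraries. The group means were 5.685 ± 2.201 CPM (SD, n = 2) in parental cells, 0.394 ± 0.332 CPM (SD, n = 2) in DIP2C-/- and 0.335 ± 0.132 CPM (SD, n = 5) in DIP2C+/-, so the parental mean was 14.4-fold and 17-fold that of the knockout groups. Clone H9-A4, which resembled parental cells in KCNAB2 below, had the same low level of KCNQ5 as the other clones.

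The log2 difference of KCNQ5 was -3.99 (SE 0.477) in the average of the clones, with an edgeR adjusted p of 0.00901. It was -4.05 (SE 0.532, adjusted p = 0.0224) in DIP2C+/- and -3.84 (SE 0.745, adjusted p = 0.209) in DIP2C-/-. A fit of only the 2 DIP2C-/- clones and the 2 parental samples gave -3.87 with an edgeR adjusted p of 0.00658, in a contrast where 12.6% of all genes were called. Without clone H9-A4 the adjusted p-values by edgeR were 0.000673, 0.00178 and 0.0156. The call needed both parental samples: with only 1 of them, the log2 difference in the average of the clones was -3.53 (adjusted p = 0.16) or -4.34 (adjusted p = 0.0748). The DIP2C+/- call was lost without either parental sample, and also when any of the other heterozygous clones was left out, with log2 differences of -4.21 to -3.86 and adjusted p-values of 0.0622 to 0.0904. The difference between DIP2C+/- and DIP2C-/- clones was -0.20 (SE 0.651), with an edgeR adjusted p of 0.985. All clones were near the floor of 3 counts (3.09 in C10, 2.84 in A6-C9, at most 9.76 in E3). This contrast could therefore detect only a large difference between the genotypes. KCNQ5 shares exonic sequence with the antisense RNAs KCNQ5-AS1 and KCNQ5-DT, and whether the counting used strand is not given in the sources used here. KCNQ5-AS1 had 0 to 3.34 counts in any sample.

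KCNAB2 was higher in 6 of the 7 clones. It was at 58.1 and 57.3 CPM in the parental samples, at 110 CPM in E3 and 120 CPM in C10. In the heterozygous clones it was at 151 CPM in A6-C9, 133 in G1-A5, 141 in A9-A12 and 123 in F6-A7, but at 50.4 CPM in H9-A4. The parental samples differed by less than 1 CPM, the 6 clones lay above them without overlap, and H9-A4 lay below them. Lying above both parental samples in these 6 clones was seen in 3 of the 56 members tested and in 12.4% of all genes tested. The group means were 57.7 ± 0.61 CPM (SD, n = 2) in parental cells, 115 ± 6.85 CPM (SD, n = 2) in DIP2C-/- and 120 ± 40.04 CPM (SD, n = 5) in DIP2C+/-.

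With all 9 samples the log2 difference of KCNAB2 in the average of the clones was 1.04 (SE 0.332) and did not pass, with an edgeR adjusted p of 0.297. Without H9-A4 it was 1.16 (SE 0.127, adjusted p = 0.00023), and it was 1.00 (SE 0.146, adjusted p = 0.0033) in DIP2C-/- and 1.25 (SE 0.133, adjusted p = 0.000221) in DIP2C+/-. The library of H9-A4 therefore decided the call, more by the spread it added than by the size of the difference, which was 2.05-fold with it and 2.25-fold without it. Some exons of KCNAB2 overlap the antisense gene NPHP4. Because KCNAB2 was so abundant, it moved the family total: the summed CPM of all members was 291 to 298 in the parental samples, 292 in H9-A4 and 331 to 386 in the other clones, whereas without KCNAB2 it was 234 to 240, 242 and 211 to 255.

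**Figure D2:**
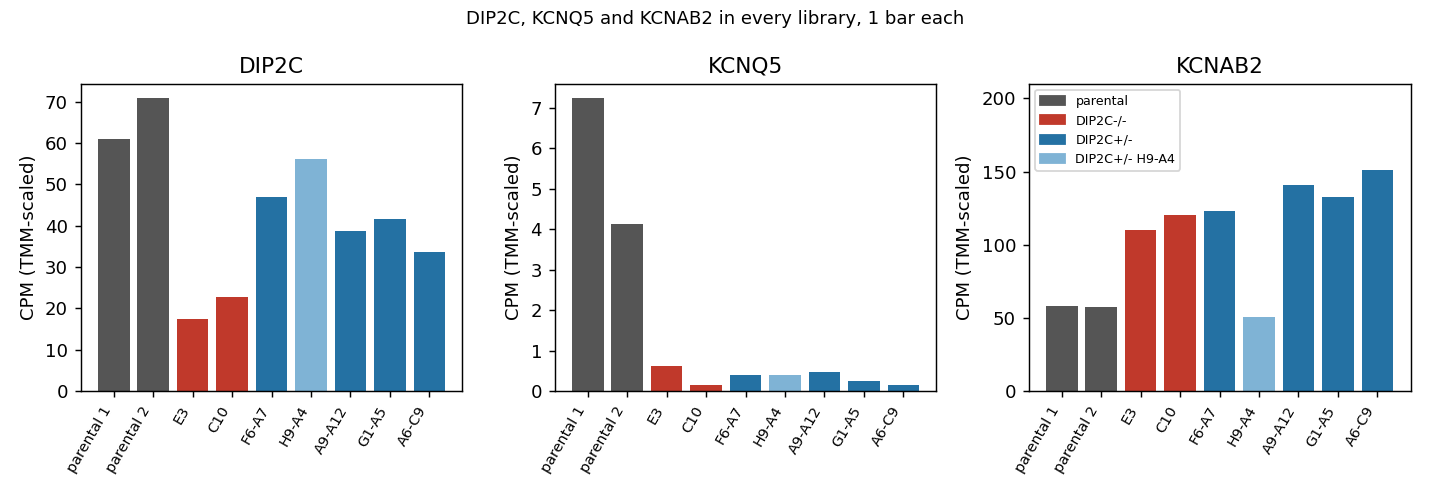
CPM of DIP2C, KCNQ5 and KCNAB2, 1 bar per library from 0, coloured by genotype. KCNQ5 is at 4.13 to 7.24 in parental RKO and at most 0.629 in the clones, and KCNAB2 is at 110 to 151 in 6 clones and at 50.4 in H9-A4.

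No Kv7 subunit other than KCNQ5 was called. KCNQ1, the epithelial and cardiac subunit, was at 11.9 and 10.5 CPM in the parental samples, 14.5 and 15.9 in E3 and C10, and 19.8, 5.92, 10.97, 13.6 and 18.4 CPM in A6-C9, G1-A5, A9-A12, H9-A4 and F6-A7. The clones spread to both sides of the parental samples, and the log2 difference was 0.33 (SE 0.374, edgeR adjusted p = 0.748). KCNQ1 overlaps the antisense RNA KCNQ1OT1, which had 737 to 1828 counts per sample, more than KCNQ1 itself, and without strand the reads of the pair could not be told apart where they overlap. KCNQ3, a common partner of KCNQ5 in the M-current, was at 0.814 to 0.852 CPM in parental cells and 0.531 to 1.45 CPM in the clones. The clones of KCNQ3 overlapped its parental samples. KCNE1 and KCNE3, the small subunits that join KCNQ1 in the heart and in the colon, were at 0.511 and 0.814 CPM and at 0.256 and 0.233 CPM in the parental samples, and at 0.193 to 2.21 CPM and 0.128 to 0.667 CPM in the clones.

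Among the EAG, ERG and ELK channels, KCNH2 was at 58.0 and 59.1 CPM in the parental samples, 45.1 and 52.4 CPM in E3 and C10, and 61.2, 59.3, 62.4, 60.6 and 69.0 CPM in A6-C9, G1-A5, A9-A12, H9-A4 and F6-A7. The homozygous clones lay below, and the heterozygous ones above, both parental samples. For G1-A5 the margin was small (59.3 against 59.1 CPM), and the share of all genes that split in this way was not counted. The difference of DIP2C+/- from DIP2C-/- was 0.36 on the log2 scale (SE 0.129) and did not pass (edgeR adjusted p = 0.878). In this contrast 0 members were called, against 0% of all genes, with 3 members and 865 genes at an unadjusted p under 0.05 and 0 members called by DESeq2. KCNH1, a channel often found in tumour cells, was at 0.341 and 0.349 CPM in parental cells and at 0.387 to 1.13 CPM in the clones, all above both parental samples but near the detection floor, with a log2 difference of 0.74 (SE 0.525, edgeR adjusted p = 0.564). KCNH4, KCNH6 and KCNH7, also detected in few samples, were at 0.0851 to 0.677, 0.127 to 0.974 and 0.175 to 0.967 CPM, with parental and clone values that overlapped. The median log2 difference of the 7 tested members of this family was 0.67, the largest of the 8 families, with 5 higher, 2 lower and 0 called. KCNH1, KCNH4 and KCNH7 had fewer than 10 counts in both parental samples. These genes passed the filter through clones where they were high, which can raise this median, and its rank was not tested.

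Of the Kv1 to Kv4 pore subunits only KCNC4, a fast Kv3 subunit, was on in all 9 samples. It was at 15.1 and 18.4 CPM in parental cells, 9.77 CPM in H9-A4 and 11.7 to 15.3 CPM in the other clones, with a log2 difference of -0.32 (SE 0.212, edgeR adjusted p = 0.534). KCNC1, a Kv3 subunit of fast-spiking neurons, was at 0.256 and 0.291 CPM in parental cells, 1.31 CPM in E3 and 0.322 to 0.821 CPM in the other clones, so that no clone overlapped the parental range. Its log2 difference of 1.00 (SE 0.659) did not pass (edgeR adjusted p = 0.526), and most of its values were under 10 counts. KCNA1, a low-threshold channel of axons, was at 0.596 and 0.116 CPM in the parental samples, 2.56 CPM in F6-A7 and 0.17 to 0.746 CPM in the other clones. The parental samples of this gene were themselves far apart, and 4 of the 7 clones lay above both. Of the 8 tested members of this family 6 were higher and 2 lower, with a median of 0.25.

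The modifying subunits, which form no channel alone but join Kv2 subunits, were low throughout. KCNS2 was at 0.383 and 1.40 CPM in parental cells, 3.54 CPM in F6-A7 and 0.638 to 1.79 CPM in the other clones. KCNV2, a subunit of photoreceptors, was at 0.852 and 1.80 CPM in parental cells and 0.266 to 1.02 CPM in the clones, with a log2 difference of -1.01 (SE 0.502, edgeR adjusted p = 0.406). KCNG2 was at 0 and 0.175 CPM in parental cells and at 0 to 0.628 CPM in the clones.

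Among the inward rectifiers, KCNJ11, the pore of the ATP-sensitive channel, was lower in every clone than in either parental sample. It was at 14.2 and 11.98 CPM in the parental samples, 8.75 and 8.73 CPM in E3 and C10, and 9.18, 10.3, 8.06, 11.8 and 9.59 CPM in A6-C9, G1-A5, A9-A12, H9-A4 and F6-A7. The gap between H9-A4 and the lower parental sample was small, and the log2 difference of -0.47 (SE 0.209) did not pass (edgeR adjusted p = 0.37). Together KCNJ11 and KCNQ5 were the 2 members of 56 that lay below both parental samples in all 7 clones, where 5.56% of all genes did, and KCNC1 and KCNH1 the 2 that lay above, where 5.34% did. The last 2 had fewer than 10 counts in both parental samples and passed the low-count filter only through clones where they were high. Their margins were small: KCNC1 had 5.69 counts in H9-A4 and 5.57 in parental sample 2. KCNH1 had 6.01 counts in E3, fewer than the 6.19 and 6.69 of the parental samples, and lay above them only as CPM. KCNJ13, an inward rectifier of epithelia, was at 2.43 and 1.40 CPM in parental cells and 0.386 to 1.54 CPM in the clones. KCNJ5, a subunit of G protein-gated channels, was at 0.937 and 0.523 CPM in parental cells and 0.0851 to 0.58 CPM in the clones, with a log2 difference of -1.42 (SE 0.606, edgeR adjusted p = 0.349). This was the 1 family with a median below 0, at -0.47 over 7 tested members, of which 3 were higher and 4 lower.

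None of the 2-pore-domain channels, which leak potassium at rest, was called. KCNK5, an acid-sensitive channel of epithelia, was at 30.7 and 28.8 CPM in parental cells, 20.0 and 22.4 CPM in the homozygous clones and 22.6 to 29.1 CPM in the heterozygous ones, with an unadjusted p under 0.05 in DIP2C-/- that did not survive adjustment. KCNK6 was at 20.1 and 17.0 CPM in parental cells and 14.7 to 19.2 CPM in the clones. For both the highest clone lay within the parental range. KCNK1 was at 15.8 and 12.6 CPM in parental cells, 31.3 CPM in clone A9-A12 and 11.6 to 17.5 CPM in the other clones, so 1 library stood apart. KCNK15 and KCNK10 were at or below 0.725 CPM in every sample, and their log2 differences of 1.70 (SE 0.876) and 0.51 (SE 0.63) did not pass.

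Of the remaining accessory and calcium-activated members, KCNMB4, a beta subunit of the large-conductance calcium-activated channel, was at 5.11 and 6.69 CPM in parental cells, 17.4 CPM in H9-A4 and 4.83 to 9.41 CPM in the other clones. Its pore partner KCNMA1 was on in all samples at 0.773 to 2.18 CPM. KCNN3, a small-conductance calcium-activated channel, was at 1.11 and 0.64 CPM in parental cells and 0.383 to 1.45 CPM in the clones. KCNN4, the calcium-activated channel of the colon, was at 0.511 and 0.756 CPM in parental cells and 0.205 to 1.18 CPM in the clones. KCNU1, a channel of sperm placed in this group by symbol, was at 0.383 and 0.291 CPM in parental cells and 0.298 to 1.16 CPM in the clones. For each of these 5 members the clones overlapped the parental samples, and none was called. The 34 detected members not named by the rule for named genes reached 0.523 to 8.51 CPM at most, and the 31 of them that were tested had log2 differences of -0.85 to 0.90, with a lowest edgeR adjusted p of 0.432 in the average of the clones.

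Single clones differed from one another in low-level members. With each clone set against the parental mean, after adding a prior count of 2 before taking log2 CPM, 8 members were at least 4-fold away in at least 1 clone, against 7.65% of all genes, and KCNQ5 was the 1 member that was so in all 7 clones. The count was 2 members in E3 (against 2.71% of all genes), 1 in C10 (2.76%), 3 in F6-A7 (2.75%), 2 in H9-A4 (1.2%), 2 in A9-A12 (3.37%), 3 in G1-A5 (2.45%) and 2 in A6-C9 (3.25%). The members other than KCNQ5, chosen for this pattern after their values were seen, were each seen in 1 or 2 clones. KCNA3, a channel of T cells, was at 1.89 CPM in E3, with 0.213 and 0.582 CPM in the parental samples. KCNIP3, a calcium-binding partner of Kv4 channels that also binds DNA, was at 0.211 and 0.255 CPM in A9-A12 and G1-A5, with 2.17 and 1.34 CPM in the parental samples and 1.16 to 2.08 CPM in the other clones. KCNH8 was at 2.65 CPM in H9-A4, with 0.465 to 0.682 CPM in parental cells. KCNA1 and KCNS2 in F6-A7, KCNG2 in A6-C9 and KCNJ5 in G1-A5 have been given above. Between the 2 parental samples 0 members differed by as much, where 1.15% of all genes did. With a prior count of 0.5 the parental samples differed at least 4-fold in 3 members, KCNA1, KCNG2 and KCNS1, where 2% of all genes did. No clone has a replicate.

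**Figure D3:**
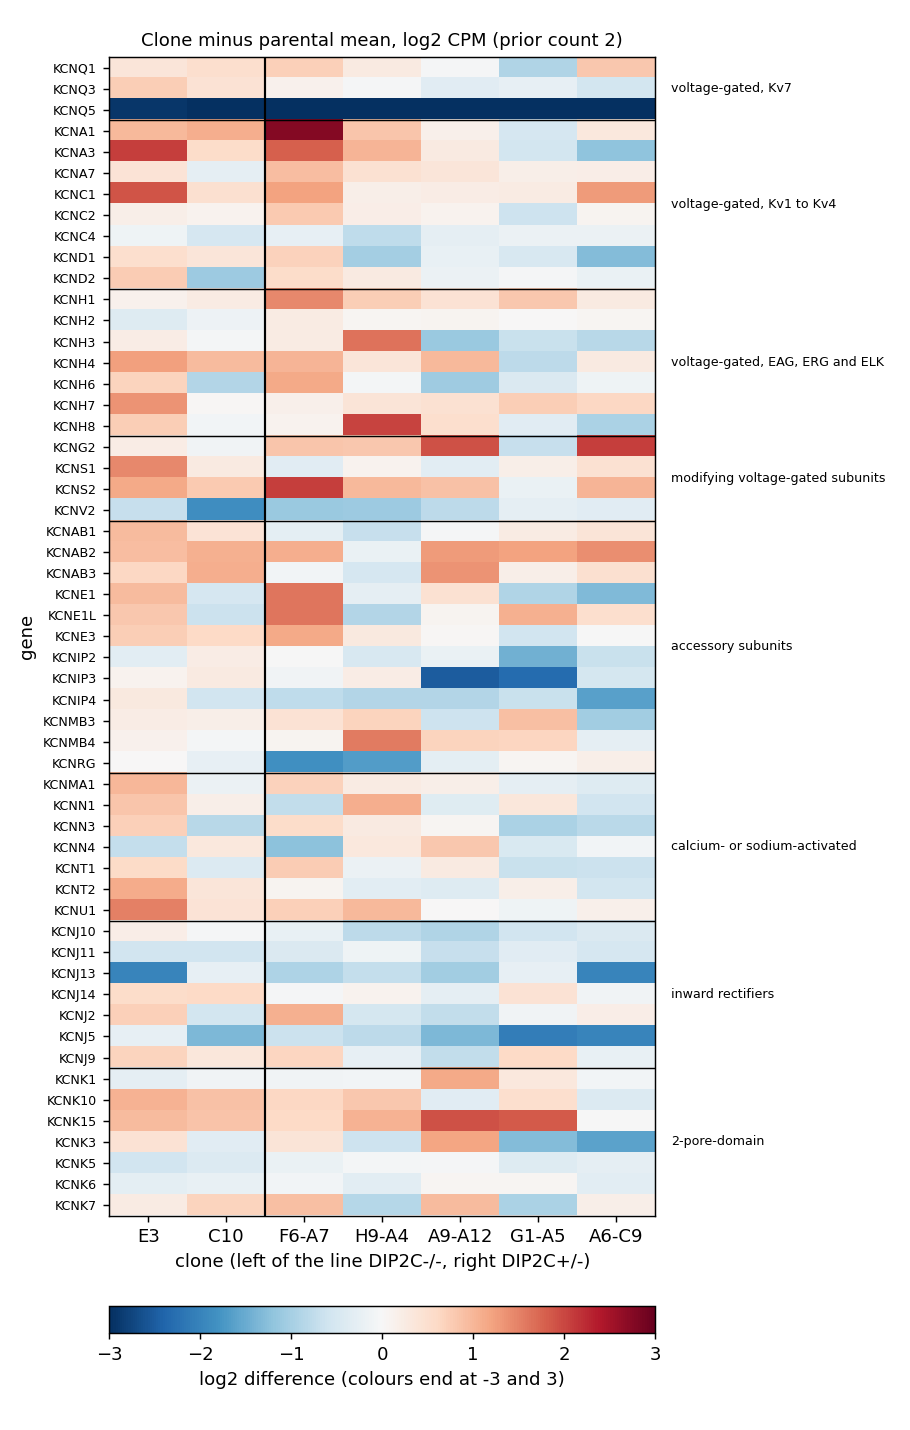
Log2 difference of each of the 7 clones (columns) from the parental mean for 55 of the 56 tested potassium channel genes (lines, ordered by family), with colours that end at -3 and 3. KCNQ5 is low in all 7 columns, KCNAB2 is high in 6, and other strong colours appear in single clones.

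Genes that work beside these channels were examined as well. Of 39 partner subunits, HCN channels, potassium pumps and cation-chloride cotransporters, 26 were tested and 0 were called by edgeR with all 9 samples in any contrast. Without H9-A4, 1 of the 26 was called higher in each of the 3 contrasts with parental cells. Of all genes, 8.95% were called in the average of the clones, 7.95% in DIP2C+/- and 4.76% in DIP2C-/-.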

How the data were processed

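RNA of 2 parental RKO samples, 2 DIP2C-/- clones and 5 DIP2C+/- clones was sequenced on the Ion Proton system. Per the labels, the authors aligned reads to hg19 with TopHat2 2.0.4 and used Cufflinks 2.2.1. The files as deposited by the authors hold estimated counts for each gene symbol. How Cufflinks output became these counts is not given in the sources used here. The study describes fewer DIP2C+/- clones than the 5 in the files. Between 97.9% and 98.4% of low values in a sample were whole multiples of 1 step (0.711 to 1.11, tolerance 0.02), so each sample appears scaled by a constant, and an alternative divided by it.

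The members and lists were chosen with earlier results of these data known. Values were rounded, genes kept by filterByExpr, scaled by TMM and fitted with 1 coefficient per group in edgeR 4.0.16 (R 4.3.3). Contrasts used the quasi-likelihood F test with Benjamini-Hochberg adjustment over all genes tested, two-sided. The average of the clones weighted each clone equally. DESeq2 1.42.0, other filters and scalings, and leaving out each sample were alternatives. Scripts were tested on simulated data. Clones are separate libraries, so p-values measure the spread between clones, and for parental cells the spread between 2 samples that may be technical. The labels give no batch or date.

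Members named were those called in any contrast with or without H9-A4, the 10 largest changes, the 10 highest mean CPM, and those off in both parental samples and on in at least 3 clones, or the reverse. Other members given with values (such as KCNQ3, KCNE1, KCNE3, KCNH6, KCNMA1 and KCNN4) were chosen after their values were seen. Positions and overlaps are from GENCODE 44 on GRCh37 (94 of 96 members matched), in which 24 of the 59 detected members share exonic bases with another gene. Promoters are RefSeq entries (71 of 96 matched). A few members and partner genes that meet these rules are not reported here by name.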

Additional observations from a re-analysis of the deposited data

Results flagged for a closer look

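In groups of 5 clones, a single library stood far from the others for 4 members, with 26 such groups checked (25 members and DIP2C). In groups not chosen by their values, chance would mark about 1 in 20. The 25 members were named partly from these same values, so this rate does not hold for them. Whether more were marked than chance would give was not tested. KCNA1 was at 2.56 CPM in F6-A7, with the other DIP2C+/- clones at 0.17 to 0.603. KCNAB2 was at 50.4 CPM in H9-A4, with the others at 123 to 151. KCNC4 was at 9.77 CPM in H9-A4, with the others at 13.8 to 14.9. KCNK1 was at 31.3 CPM in A9-A12, with the others at 13.1 to 17.5. The gap to the nearest clone was 0.819, 0.725, 0.792 and 0.755 of the whole range, above the critical value of 0.71.

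KCNH2 was below the parental mean in both DIP2C-/- clones and above it in all 5 DIP2C+/- clones, and the mean log2 difference of DIP2C-/- from DIP2C+/- clones was -0.361. Only members named by the rule were checked for this pattern, and its share over all genes was not counted. By edgeR's quasi-likelihood test the difference of DIP2C+/- from DIP2C-/- was 0.36 (SE 0.129) with an adjusted p of 0.878.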

How the results depend on the processing

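The number of members called in the DIP2C-/- contrast was 0, and became 1 with DESeq2 (KCNQ5) and 2 (KCNQ5 and KCNAB2) in a fit of only the groups compared. With 1 sample left out at a time it was 0 to 2 in DIP2C-/-, 0 to 2 in DIP2C+/- and 0 to 2 in the average of the clones, where the 2 came without H9-A4 and the 0 in the average came without either parental sample. The contrast of DIP2C+/- with DIP2C-/- gave 0 throughout. The KCNQ5 log2 difference in the average of the clones was -4.34 to -3.53 over 16 alternatives, of which 14 passed, with adjusted p-values of 2.13e-09 to 0.16. That of KCNAB2 was 0.97 to 1.16, of which 1 passed, with adjusted p-values of 0.00023 to 0.815. Members off fell from 37 to 10 with a limit of 5 counts, and members 4-fold from parental cells in a single clone rose from 8 to 13 with a prior count of 0.5, while those between the parental samples rose from 0 to 3. The sign of 4 uncalled members changed in the average of the clones. KCNH2 became 0.00081 with a filter on a mean of 10 counts and 0.00023 with only the groups compared. With 1 sample left out at a time KCNH2 was -0.051 to 0.060 (above 0 without parental sample 2, E3 or C10), KCNK1 -0.059 to 0.33 (below 0 without A9-A12), KCNK10 -0.092 to 1.52 (below 0 without parental sample 2) and KCNN3 -0.39 to 0.41 (above 0 without parental sample 1, C10, G1-A5 or A6-C9). Most detected members had few counts, and for these only large differences were detectable at this depth. No paired analysis was possible because each clone was 1 library and no parental sample is labelled as its partner. The labels also do not say which heterozygous clone the homozygous clones came from.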
